A study of Glycine max with 22 samples.

Results

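The enzymes described here make flavonoids and isoflavonoids in soybean leaves: chalcone synthase CHS8, the chalcone isomerases CHI1B1 and CHI2-A, chalcone reductase CHR5 and the flavonoid glucosyltransferase UGT78K1. Members were all soybean probe sets of the array whose single gene symbol, or a synonym of it, is one of these 5 names. This gave 12 probe sets of 37593 soybean probe sets: 5 for CHS8, 4 for CHI1B1 and 1 for each of CHI2-A, CHR5 and UGT78K1. A further 2 probe sets that carry CHI1B1 among several symbols were left out. All 12 members exceeded the floor of unspecific signal on at least 3 arrays and were tested.

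RNA of mature leaves from chamber-grown soybean plants was hybridised to 22 Affymetrix arrays in 7 groups. D15 plants had every axillary and terminal bud removed daily for 15 days and were 45 days old at harvest (n = 3). R20 plants had then regrown shoots for 5 days and were 50 days old, and R30 plants had regrown them for 15 days and were 60 days old (n = 3 each). Untreated plants of the same ages formed C15, C20 and C30 (n = 3 each), and C0 held untreated plants 30 days old, at the start of bud removal (n = 4). The labels do not say how many plants gave a sample, so p-values measure only the spread between these samples.

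Flavonoid synthesis starts where phenylalanine-derived coumaroyl-CoA meets malonyl-CoA, which chalcone synthase joins into a chalcone. Chalcone isomerase closes the ring to a flavanone, and legumes carry type II isomerases that also accept the deoxychalcones made when chalcone reductase acts together with chalcone synthase. From these come daidzein and, in soybean under attack, the glyceollin phytoalexins, while UGT78K1 adds a glucose to anthocyanidins and was described in the soybean seed coat.

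On the signals of the deposited table, 11 of the 12 probe sets, those of CHS8, CHI1B1, CHI2-A and CHR5, lay higher in leaves of bud-removed plants than in leaves of untreated plants. Averaged over the 3 ages their differences ran between 1.53 and 3.08 on the log2 scale, and the UGT78K1 probe set stood at 0.80 ± 0.37 (SE). The fit was limma on log2(signal + 1) over all 22 arrays, and a probe set was called at a Benjamini-Hochberg adjusted p under 0.05 over the 32776 soybean probe sets tested. In D15 against C15, 1 of 12 members was called higher, where 0.146% of all probe sets tested were. In R20 against C20, 5 of 12 were called higher, against a background of 6.64%. In R30 against C30, 5 of 12 were called higher, against a background of 1.82%. No member was called lower in any of these comparisons, where 0.0793%, 11.2% and 0.403% of all probe sets were, in the same order of ages.

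The median member difference was 2.06 in D15 against C15, where the median of all probe sets tested was -0.04. It was 2.05 in R20 against C20, where all probe sets had a median of -0.27, and 2.42 in R30 against C30, where they had 0.05. In each of the 3 comparisons 11 of 12 members had an unadjusted p under 0.05, where 11.9% of all probe sets did in D15 against C15, 34.3% in R20 against C20 and 14.4% in R30 against C30. The mean of the 3 same-age differences, a comparison added after the data were seen, combines arrays that no pair of ages shares. It called 11 of 12 members higher by limma, against a background of 11.1%, and left out UGT78K1 at an adjusted p of 0.122. Of these 11 probe sets 5 belong to CHS8 and 4 to CHI1B1, so they are not separate genes. Members were chosen with earlier results of these data known. Their counts beside the background, at single ages and in the mean, are therefore descriptions and no independent support. Fewer cells that express a gene and less RNA per cell cannot be told apart in whole leaves.

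**Figure D1:**
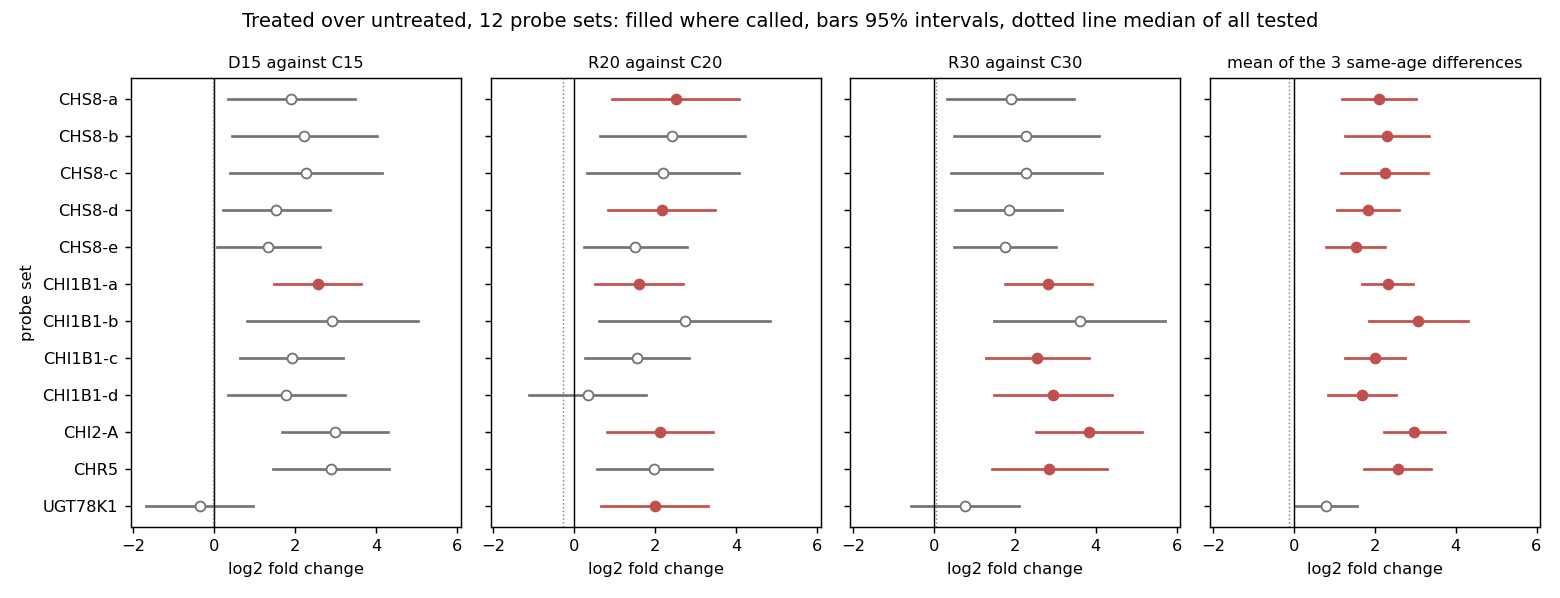
Log2 fold change on the log2(signal + 1) scale of 12 probe sets, treated over untreated, in D15 against C15, R20 against C20, R30 against C30 and the mean of the 3. Points are fitted values with 95% intervals, filled where called, and the dotted line is the median of all probe sets tested; in the mean, 11 points are filled and UGT78K1 is open at 0.80.

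The arrays bear on these values as follows. The floor, the 95th percentile of 23350 oomycete and nematode probe sets on the same array, lay between 11.8 and 22.1. Replicate 3 of R20 stood apart: its median soybean signal was 38.2, against 57.1 to 81.3 on the other 21 arrays, and 60.3% of its soybean probe sets exceeded the floor, against 71.4% to 78.7%. One actin 3′ over 5′ ratio was 136 on it, against 2.29 to 8.37 elsewhere, while a second actin ratio, 8.28, lay inside the range of 5.32 to 56.1 over all arrays. The ratio of the spiked controls BioC and BioB was 2.39 to 2.89 on the R20 and C20 arrays and 0.948 to 1.20 on the other 16, so these 6 arrays stood together. Vegetative storage protein VSPA, whose transcript is known to accumulate in leaves of depodded or bud-removed soybean, read 7332 to 11359 on the 9 treated arrays and 10.6 to 36.9 on the C20 and C30 arrays. On the C15 arrays VSPA read 3542, 134 and 42.9, and on the C0 arrays 8459, 7322, 6889 and 113. The leaf markers CAB3 and LHCP exceeded the floor on 22 of 22 arrays. Of 7 seed markers, the glycinins GY1, GY2, GY3 and GY5 exceeded it on 0 arrays, CG-1 on 4, SBP on 5 and SBP2 on 2. Their part in the results was not tested.

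CHS8, which catalyses the first committed step, gave 5 probe sets, lettered a to e by mean signal. In the brightest, CHS8-a, the D15 arrays read 4928, 5734 and 5399, against 2944, 2329 and 428 on the C15 arrays. R20 leaves gave 4299, 4960 and 6286, and C20 leaves 1597, 550 and 817. For the last age, R30 arrays read 5515, 4544 and 4290, against 4370, 1481 and 318 on C30 arrays. All 9 treated arrays therefore lay between 4290 and 6286, and 1 untreated array of the same ages, replicate 1 of C30, lay above the lowest of them.

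The CHS8-a difference was 1.90 ± 0.75 (SE) in D15 against C15, with a limma adjusted p of 0.306. It was 2.51 ± 0.75 in R20 against C20, with an adjusted p of 0.0282, and 1.90 ± 0.75 in R30 against C30, with an adjusted p of 0.231. CHS8-d was also called in R20 against C20, at 2.16 ± 0.63 and an adjusted p of 0.0262. The other 3 CHS8 probe sets stood at 1.51 to 2.43 there, with adjusted p-values of 0.0556 to 0.0915. No CHS8 probe set was called in the other 2 same-age comparisons, with differences of 1.33 to 2.26 in D15 against C15 and 1.76 to 2.29 in R30 against C30. Averaged over the ages, all 5 were called, CHS8-a at a 4.30-fold higher signal with a limma adjusted p of 0.00215.

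The CHS8 probe sets did not read alike on replicate 3 of R20. CHS8-d stood at 723 on it, against 347 and 392 on the other R20 arrays, and CHS8-a was also highest there. CHS8-c read 736 on that array, against 2059 and 2074, and CHS8-e read 36.0, against 115 and 120. Over all 22 arrays the 10 pairs of CHS8 probe sets correlated at r = 0.843 to 0.993. The identifiers of CHS8-a, -b and -c end in _s_at or _x_at, which Affymetrix gives to probes shared by related transcripts, so other chalcone synthases may add to these signals.

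**Figure D2:**
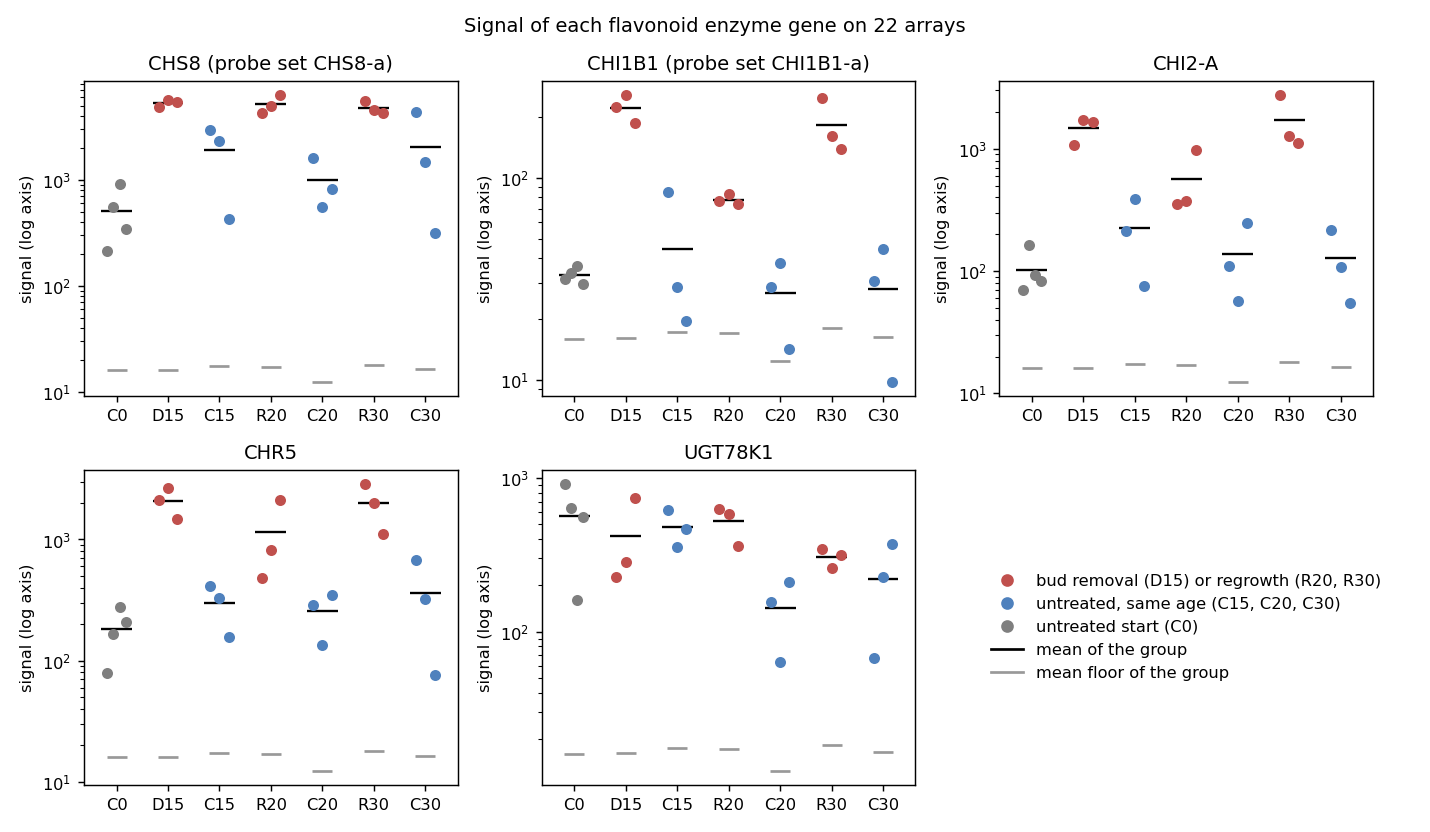
Signal (log axis) of CHS8-a, CHI1B1-a, CHI2-A, CHR5 and UGT78K1 on each of 22 arrays, by group, with group means (black) and the mean floor (grey). CHS8-a lies between 4290 and 6286 on the 9 treated arrays and spreads from 318 to 4370 on the untreated arrays of the same ages.

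CHI1B1, a type II chalcone isomerase, was dim and was called in each same-age comparison by its brightest probe set, CHI1B1-a. This probe set read 223, 254 and 185 on the D15 arrays, against 85.1, 29.0 and 19.6 on the C15 arrays. R20 leaves gave 76.6, 83.1 and 73.9, and C20 leaves 29.0, 37.8 and 14.3. In R30 leaves it read 247, 161 and 138, against 30.9, 44.2 and 9.80 in C30 leaves, the last of which was below the floor. Treated and untreated arrays did not overlap at any of the 3 ages.

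The CHI1B1-a differences were 2.55 ± 0.52 (SE) in D15 against C15, 1.59 ± 0.52 in R20 against C20 and 2.83 ± 0.52 in R30 against C30. Their limma adjusted p-values were 0.0478, 0.0400 and 0.00543, in that order of ages. The R20 call was lost in all 6 fits that left out 1 array, and the D15 call in 5 of 6, while the R30 call was kept in 5 of 6. It was the single member called in D15 against C15. CHI1B1-c and CHI1B1-d were called in R30 against C30 as well, at 2.55 ± 0.61 and 2.94 ± 0.69 with adjusted p-values of 0.0325 and 0.0294. CHI1B1-b stood at 3.60 ± 1.01 there with an adjusted p of 0.0735, and exceeded the floor on 1 of 3 C30 arrays. Single control values near 0 stretch its log2 differences: its mean over the ages was 3.08, and 1.81 with a pseudocount of 16. CHI1B1-d was the probe set that differed least in R20 against C20, at 0.33 ± 0.69, and read 5.57 on replicate 3 of R20, below that array's floor. The 6 pairs of CHI1B1 probe sets correlated at r = 0.714 to 0.932 over the arrays. The identifiers of CHI1B1-a and CHI1B1-d end in _x_at, so other chalcone isomerases may add to their signals.

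CHI2-A, another chalcone isomerase gene of the same cluster, had the largest member difference in R30 against C30. Its signals were 1077, 1735 and 1658 in D15 leaves, against 213, 386 and 75.9 in C15 leaves. R20 leaves gave 351, 377 and 977, and C20 leaves 110, 56.7 and 247. R30 leaves read 2737, 1276 and 1117, against 218, 108 and 54.7 in C30 leaves. No treated array overlapped the untreated arrays of its age.

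The CHI2-A difference was 3.84 ± 0.63 (SE) in R30 against C30, a 14.3-fold higher signal with a limma adjusted p of 0.00207. It was 2.12 ± 0.63 in R20 against C20, with an adjusted p of 0.0271. The R20 call was kept in 3 of 6 fits that left out 1 array. It was lost without C20 replicate 1 or 2, or without R20 replicate 3, the array that stood apart. It was also lost with only the arrays compared, with the actin covariate, and without C15 replicate 1 and R20 replicate 3 together. In D15 against C15 the difference was 2.98 ± 0.63 and was not called, at an adjusted p of 0.0553. The mean over the ages was 2.98 ± 0.36, with an adjusted p of 1.83e-05. In the RefSeq gene order of soybean assembly 4.0, used for names and neighbours only, CHI1A, CHI1B1 and CHI2-A follow each other with no gene between them.

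CHR5, the reductase that leads to deoxychalcones and daidzein, was called in R30 against C30. Its signals were 2130, 2647 and 1486 in D15 leaves, against 409, 329 and 156 in C15 leaves. In R20 leaves they were 483, 822 and 2129, against 288, 134 and 351 in C20 leaves. R30 leaves read 2864, 2000 and 1109, and C30 leaves 680, 322 and 75.9. The groups did not overlap at any age, and the highest R20 value came from replicate 3, the array that stood apart.

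The CHR5 difference was 2.85 ± 0.68 (SE) in R30 against C30, with a limma adjusted p of 0.0326. That call was kept in 2 of 6 fits that left out 1 array, those without C30 replicate 1 or R30 replicate 3, and was lost with median centring and with only the arrays compared. The difference was 2.88 ± 0.68 in D15 against C15 and 1.98 ± 0.68 in R20 against C20, with adjusted p-values of 0.0849 and 0.0504, neither called. Averaged over the ages it was 2.57 ± 0.39, with an adjusted p of 0.000194. The CHR5 probe set also ends in _s_at, so other chalcone reductases may add to its signal.

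UGT78K1, which glucosylates anthocyanidins and other flavonoids, did not share the pattern of the other members. It read 227, 285 and 745 in D15 leaves, against 621, 358 and 467 in C15 leaves, and these overlapped. R20 leaves gave 633, 580 and 362, and C20 leaves 155, 63.2 and 212, with no overlap. R30 leaves gave 343, 261 and 316, and C30 leaves 67.1, 226 and 370, which overlapped.

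The UGT78K1 difference was -0.37 ± 0.64 (SE) in D15 against C15, with a limma adjusted p of 0.878, and 0.77 ± 0.64 in R30 against C30, with an adjusted p of 0.619. In R20 against C20 it was 1.99 ± 0.64, with an adjusted p of 0.0372, and was called. Of the 6 fits that left out 1 array, that call was kept only without C20 replicate 3. The call was also lost with only the arrays compared and with the actin ratio as a covariate. Without C15 replicate 1 and R20 replicate 3 together it was lost as well. The change of the R20 difference from the D15 difference was 2.36 ± 0.90 with a 95% interval of 0.48 to 4.24, unadjusted p of 0.0165 and a limma adjusted p of 0.395. That test called 0 of 12 members and 0.0% of all probe sets, and 1 member had an unadjusted p under 0.05, where 11.3% of all did. The same test of R30 against D15 also called 0 of 12 members, with a background of 0.0%, and 0 members had an unadjusted p under 0.05, where 2.24% of all did. For CHI2-A its interval ran from -0.99 to 2.71, and this does not show that the ages were alike.

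Non-overlap of the arrays gave a count that uses no model. In D15 against C15, 11 of 12 members had every treated array above every untreated one, where 8.63% of all probe sets tested did, and none had every treated array below, where 7.58% of all did. In R20 against C20, 11 of 12 did, where 15.5% of all did, and CHI1B1-d was the exception. None lay wholly below there, where 26.4% of all did. In R30 against C30, 7 of 12 did, where 13.1% of all did, and none lay wholly below, where 9.02% did. The 5 others there were CHS8-a to CHS8-d and UGT78K1. At all 3 ages together this held for 6 of 12 members, namely CHI1B1-a, -b and -c, CHI2-A, CHR5 and CHS8-e, where 2.6% of all probe sets met it.

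The calls at single ages turned on single arrays, as did those over all probe sets. In D15 against C15, 4 members were called without replicate 1 of C15, the C15 array of highest VSPA, and 0 without each of the other 5 arrays. Over all probe sets the calls higher were 663 without C15 replicate 1 and 1 to 13 without the others, against 48 with all arrays. In R20 against C20, 1 member was called without replicate 3 of R20, namely CHS8-e, 0 without replicate 2 of C20, 2 without replicate 1 or 3 of C20, 3 without replicate 2 of R20 and 4 without replicate 1. All probe sets gave 792 to 1838 calls higher in these fits, against 2175 with all arrays. In R30 against C30, 10 were called without replicate 1 of C30, and 1 to 4 without each other array, CHI2-A being called each time. All probe sets gave 895 calls higher without C30 replicate 1 and 174 to 479 without the others, against 597 with all arrays. In the mean over the ages, 11 members were called in each of 18 fits that left out 1 array. All probe sets gave 2889 to 4512 calls higher there, against 3647 with all arrays.

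Untreated leaves spread widely in several members. The highest over the lowest CHS8-a signal was 1.16 in D15 against 6.87 in C15, 1.46 in R20 against 2.90 in C20, and 1.29 in R30 against 13.8 in C30. This spread, taken on signal + 1, was smaller in the treated group at all 3 ages for 6 of 12 members, namely CHS8-a, -b and -c, CHI1B1-a and -b, and CHI2-A, where 20.8% of all probe sets tested met it. CHR5 spread more in R20 than in C20, 4.41 against 2.63. With 3 arrays a group, no test of spread was made.

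**Figure D3:**
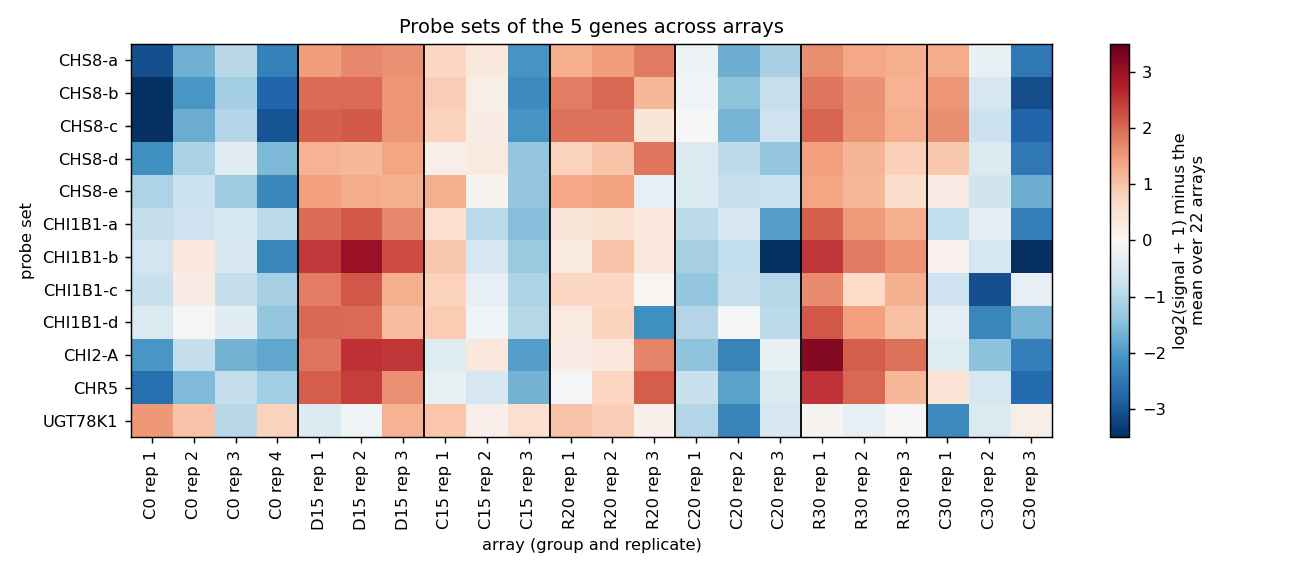
Signal of 12 probe sets (rows) on 22 arrays (columns) as log2(signal + 1) minus the probe set's mean over the arrays, red above and blue below. The D15, R20 and R30 columns are red in most CHS8, CHI1B1, CHI2-A and CHR5 rows, with CHI1B1-d at 5.57 signal units on R20 replicate 3 as an exception.

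Age without treatment was fitted in C30 against C0 only. In C30 against C0, 0 of 12 members were called in either direction by limma, where 1.2% of all probe sets were called higher and 3.15% lower, and 2 members had an unadjusted p under 0.05, where 18.5% of all did, a share near theirs. These were CHS8-a, at 1.53 ± 0.70 (SE) with an adjusted p of 0.249, and UGT78K1, at -1.42 ± 0.59 with an adjusted p of 0.194. CHS8-a read 212, 560, 919 and 346 on the C0 arrays, and UGT78K1 read 915, 639, 161 and 558. The arrays of C30 and C0 overlapped in all 12 members, where 5.28% of all probe sets lay wholly higher and 7.14% wholly lower. Without replicate 3 of C30, CHS8-a and CHS8-b were called in this comparison.

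Ordered by group mean, CHS8-a ran from D15 at 5354 over R20 at 5182, R30 at 4783, C30 at 2056, C15 at 1900 and C20 at 988 to C0 at 509, and each neighbouring pair overlapped. CHI1B1-a ran from D15 at 221 over R30 at 182 and R20 at 77.9 to C15 at 44.5, C0 at 32.9, C30 at 28.3 and C20 at 27.0. Of these neighbours, R30 and R20 did not overlap. CHI2-A was highest in R30 at 1710 and D15 at 1490, and R20 at 568 did not overlap D15. The CHR5 means were 2087 in D15, 1991 in R30 and 1144 in R20, and 183 to 359 in the untreated groups. UGT78K1 was highest in C0 at 568 and lowest in C20 at 143, and all neighbours overlapped. Overlap of such neighbours was not counted over all probe sets. The R20 and C20 arrays also stood apart in the spiked controls, so their levels against other ages cannot be told apart from that array difference.

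Over the 22 arrays, log2(signal + 1) of CHS8-a and CHR5 correlated at r = 0.913, of CHI2-A and CHR5 at r = 0.945 and of CHS8-a and CHI2-A at r = 0.856. After each group's mean was taken off, these were 0.823, 0.770 and 0.699. CHI1B1-a correlated with CHI2-A at 0.861, with CHR5 at 0.864 and with CHS8-a at 0.785, and after the group means were taken off at 0.209, 0.467 and 0.617. The arrays share their groups and their scaling, so these are descriptions. UGT78K1 correlated with the other 4 genes at r = -0.07 to 0.14 over the arrays, and at -0.50 to -0.11 after the group means were taken off.

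Among 897 other genes with an informative single symbol, those most like each member over the 22 arrays were found by Pearson's r. CHI1A, a further chalcone isomerase, was among the 3 nearest to CHS8 (0.956), CHI1B1 (0.851), CHI2-A (0.878) and CHR5 (0.902). The CHI1A probe set ends in _s_at, so other chalcone isomerases may add to its signal. The others nearest to CHS8 were UGT708D1 (0.929) and PR-10 (0.922), and those nearest to CHI1B1 were the isoflavone synthase IFS2 (0.854) and DIR22 (0.853). CHI2-A was also near G6PDH (0.896) and PR1-7 (0.891), and CHR5 near PR1-7 (0.913) and the trehalase TRE1 (0.887). UGT78K1 was near SFERH-3 (0.867), NES (0.838) and the chlorophyll-binding protein gene CAB3 (0.825).

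The pathway was read from 5 lists that include the 5 member genes, each gene by its brightest probe set. In D15 against C15 and in R30 against C30 every gene called was a member. In D15 against C15, where 0.146% of all probe sets were called higher, CHI1B1 alone was called among 8 flavonoid core genes, and 0 of 7 phenylpropanoid entry genes, 24 isoflavonoid branch genes, 4 flavonol and anthocyanin branch genes and 4 regulators were. In R20 against C20, where 6.64% of all were, 4 of 8 core genes were called, the fourth being the chalcone isomerase-like gene CHI4A at 1.14 ± 0.29 (SE) with a limma adjusted p of 0.0128. Of the entry genes 1 of 7 was called, phenylalanine ammonia-lyase PAL2.1 at 1.98 ± 0.67 with an adjusted p of 0.0479. In R30 against C30, where 1.82% of all were called higher, the calls were CHI1B1 and CHI2-A in the core and CHR5 in the isoflavonoid branch, with 0 in the other 3 lists. Where a list had no call, its gene of smallest p was CHR5 (given above), 4CL2 at 1.93 ± 0.70, ANS2 at 0.83 ± 0.96 and MYB29 at 1.74 ± 0.80 in D15 against C15. It was MYB176 at 0.68 ± 0.27 in R20 against C20, and 4CL2 at 2.66 ± 0.70, UGT78K1 and MYB29 at 1.78 ± 0.80 in R30 against C30. MYB29 exceeded the floor on only 1 C15 and 1 C30 array, which limits its differences. ANS2 exceeded it on 2 D15 arrays and 1 C15 array, which limits its difference too. Leaving out 1 array gave 0 to 3 core calls in D15 against C15, highest without C15 replicate 1. It gave 0 to 3 core calls in R20 against C20, 0 without C20 replicate 2, and among these fits PAL2.1 kept its call without C20 replicate 1 and lost it without each other array. In R30 against C30 it gave 1 to 4 core calls and 0 to 5 isoflavonoid branch calls, the highest of both without C30 replicate 1.

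The isoflavonoid branch had 3 of 24 genes called higher in R20 against C20, where 6.64% of all probe sets were, a background not far from it. IFR, named for isoflavone reductase, read 483, 448 and 1148 in R20 leaves, against 73.7, 34.0 and 13.5 in C20 leaves, a difference of 4.23 ± 1.35 (SE) with a limma adjusted p of 0.0373. The IFR call was lost in all 6 fits that left out 1 array. LOC100780605, a cytochrome P450 gene, read 56.8, 49.7 and 85.8 in R20 leaves and was not above the floor on any C20 array, so its signal was at least 4.73-fold higher, with an adjusted p of 0.00478. LOC100778056 stood at 1.95 ± 0.54, with an adjusted p of 0.0198. R20 and C20 arrays did not overlap in any of these 3 genes, where 15.5% of all probe sets lay wholly higher. Without any of the 3 C20 arrays in turn, or without R20 replicate 2, 1 gene of the branch was called, LOC100780605.

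Averaged over the 3 ages, 14 of 24 isoflavonoid branch genes were called higher, where 11.1% of all probe sets were, and 13 of these were not members. The list's median was 1.12, against -0.13 for all probe sets tested. IFR stood at 3.67 ± 0.78 (SE) and LOC547659 at 2.79 ± 0.61 (limma adjusted p-values of 0.00272 and 0.00334). Both exceeded the floor on only 2 of 3 C30 arrays, and the lowest C30 signal of IFR was 0.85, which stretches its difference. In the lowest of 10 alternative settings the differences were 2.99 for IFR and 2.54 for LOC547659. LOC100780605 was also called, at an adjusted p of 0.000637, and no difference is given for it because it exceeded the floor on 1 C15, 0 C20 and 1 C30 array. The isoflavone synthases IFS1 and IFS2 were called at 1.88 ± 0.53 and 1.86 ± 0.44. Their identifiers end in _s_at, as do those of IFR and LOC100778056. Related genes may add to these signals, so the branch calls may not all stand for separate genes. Without C15 replicate 3 the branch had 9 calls, and 15 at most without another array.

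The entry list had 4 of 7 genes called in the mean over the ages, where 11.1% of all probe sets were called higher. Its median was 1.21, against -0.13 for all probe sets tested. The coumarate-CoA ligase 4CL2 stood at 2.08 ± 0.40 (SE) and cinnamate hydroxylase C4H at 1.21 ± 0.29 (limma adjusted p-values of 0.00138 and 0.00557), and 4CL1 at 1.29 ± 0.41. Leaving out 1 array gave 2 to 6 entry calls, with 2 without C15, C30 or R30 replicate 3, D15 replicate 3, C20 or C30 replicate 2, or R20 or R30 replicate 1. The core list had 5 of 8, of which 2 were not members, CHI1A at 1.66 ± 0.32 and CHI4A at 0.87 ± 0.16. In the flavonol, anthocyanin and proanthocyanidin branch, 0 of 4 genes tested were called by limma, with a median of 0.14. This list had 7 genes on the array, and ANR1, DFR2 and LAR1 were too dim to be tested. ANS2 exceeded the floor on 1 or 2 of 3 arrays in each same-age group, and DFR1 on 0 or 1. The 0 of 4 therefore does not show that this branch was unchanged. Of the regulators 1 of 4 was called, MYB29 at 1.46 ± 0.46 with a limma adjusted p of 0.0287. Lists of 4 genes are too short to set such counts apart from the background of 11.1%. MYB29 exceeded the floor on only 1 C15 and 1 C30 array, and its difference was 0.83 in the lowest of 10 alternative settings. Leaving out 1 array gave 0 to 2 regulator calls, with 0 without C15 replicate 3, D15 replicate 1, or replicate 2 of R20, C30 or R30. No gene tested of the 5 lists was called in C30 against C0, where 1.2% of all probe sets were called higher and 3.15% lower. At such low shares this does not show that the lists were unchanged with age.

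**Figure D4:**
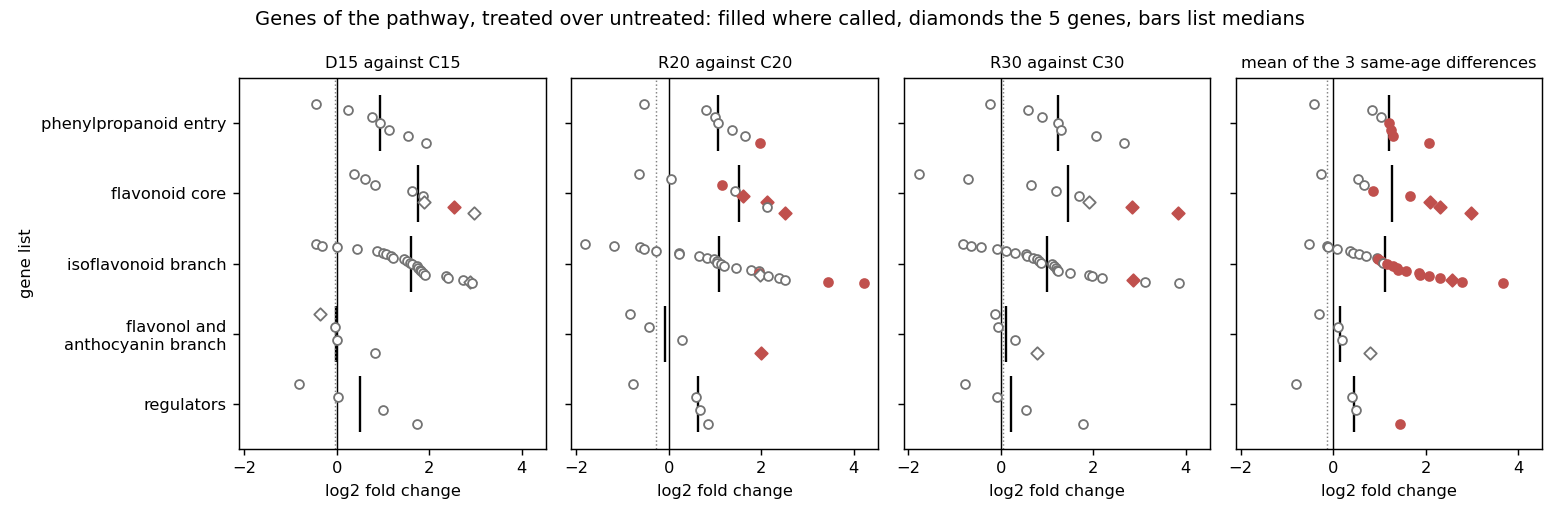
Log2 fold change of each gene of 5 pathway lists, treated over untreated, in D15 against C15, R20 against C20, R30 against C30 and their mean; filled points are called, diamonds are the 5 enzyme genes, bars are list medians and the dotted line is the median of all probe sets. In the mean, where 11.1% of all probe sets were called higher, 14 of 24 isoflavonoid branch genes are filled. In the flavonol and anthocyanin branch 0 of 4 are, of which ANS2 and DFR1 lay near the floor.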

How the data were processed

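Leaf RNA was made into biotin-labelled cRNA for Affymetrix arrays, per the labels' protocols. The authors deposited a table of linear intensities, with a column for each array and 61170 probe sets. The trimmed means of the deposited arrays lay between 125.009 and 125.015, which shows a common scaling. Software that summarised the probes: not given in the sources used here.

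Signals were analysed as log2(signal + 1) with limma 3.58.1 in R 4.3.3, with 1 coefficient per group over 22 arrays and eBayes with a variance trend. Tests covered each soybean probe set above the floor, the 95th percentile of oomycete and nematode probe sets, on at least 3 arrays. P-values were adjusted by Benjamini-Hochberg within each comparison. Fold changes are on the log2(signal + 1) scale, where single values near 0 can stretch the difference of a dim probe set. The fit was tested on simulated data. Depth has no meaning for arrays, and their number limits the precision.

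Members and lists were chosen with earlier results of these data known. The mean of the same-age differences, the actin covariate and the joint removal of C15 replicate 1 and R20 replicate 3 were added after the data were seen. All member probe sets are named. Of each list, up to 3 called genes of smallest adjusted p are named per comparison, and for likeness the 3 genes of highest correlation. Where none was called, the gene of smallest p is named. CHI1A, IFS1 and IFS2 in the mean over the ages were named after their values were seen. Gene names come from the array's annotation, updated through RefSeq.

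The study ran 3 time courses, but the labels do not tie replicate numbers to them. Same-numbered arrays of the same-age groups had correlations of -0.158 to 0.272 between their deviations from the group means. Arrays of different numbers had -0.295 to 0.244. The numbers were not taken to pair the arrays, but these values do not settle whether they share a time course. A fit with the replicate block is given below. The highest correlation between any 2 arrays was 0.961, and no array was a copy of another.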

Additional observations from a re-analysis of the deposited data

How the results depend on the processing

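The number of members called per age depended on the processing, and the cause was not tested. In D15 against C15 the 1 call became 0 with median centring, without the filter, without the variance trend and with only the arrays compared, 2 with the replicate block, 3 with a pseudocount of 16 and 3 with the actin ratio as a covariate. Leaving out 1 array gave 0 to 4 calls, and leaving out C15 replicate 1 and R20 replicate 3 together gave 6. Over all probe sets the calls higher moved too, from 48 to 32 with median centring, 36 without the filter and 15 without the variance trend. They were 0 with only the arrays compared, 214 with the replicate block, 116 with the pseudocount and 168 with the actin covariate. Without 1 array they were 1 to 663, and without those 2 arrays 1135. In R20 against C20 the 5 calls became 11 with median centring, which moved the median of all probe sets to 0.19, 8 with a pseudocount of 16, 8 with the replicate block, 3 with only the arrays compared, 9 with the actin covariate and 2 without those 2 arrays, and 0 to 4 without 1 array. Median centring also turned the split of all calls in R20 against C20 to 3851 higher and 1721 lower, against 2175 higher and 3668 lower. Calls higher over all probe sets were 2213 with the pseudocount, 2572 with the replicate block and 1233 with only the arrays compared. They were 2215 with the actin covariate and 1886 without those 2 arrays. In R30 against C30 the 5 calls became 1 with only the arrays compared and 7 with the replicate block, and 1 to 10 without 1 array. All probe sets gave 394, 867 and 174 to 895 calls higher in these fits, against 597 in the main fit. C30 against C0 gave 0 to 2 without 1 array, where all probe sets gave 54 to 1166 calls higher, against 394 with all arrays. The mean over the ages gave 11 under each of 10 alternatives and 18 fits without 1 array. All probe sets gave 3531 to 5044 calls higher under the alternatives and 2889 to 4512 without 1 array, against 3647 in the main fit. CHI1B1-d in R20 against C20, not called at 0.33, changed sign without replicate 1 or replicate 2 of R20, and ran between -0.231 and 1.24 over the fits without 1 array. With the actin covariate it was called higher, at 1.67 and an adjusted p of 0.021. Values near the floor limit CHI1B1-b, -c and -d and CHS8-e in untreated leaves.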

Other observations

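On 3 of the 4 C0 arrays VSPA read 8459, 7322 and 6889, where the treated arrays read 7332 to 11359, and CHS8-a on the same C0 arrays read 212, 560 and 919. Replicate 1 of C30 had a CHS8-a signal of 4370, inside the range of the treated arrays, while VSPA on the C20 and C30 arrays read 10.6 to 36.9. On that array CHI2-A read 218 and CHR5 680, both below the lowest R30 array. The C15 arrays went the other way, with VSPA and CHS8-a in the same order of replicates. There VSPA fell from 3542 over 134 to 42.9 and CHS8-a from 2944 to 428.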
